A study of Mus musculus with 36 samples.

Results

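Transcripts of 9 meiosis genes were followed in differentiating mouse embryonic stem cells (mESCs): Stra8, Sycp1, Sycp2, Sycp3, Hormad1, Smc1b, Stag3, Rec8 and Dmc1. The members were chosen by their role in meiosis, with the day course of these data and the difference between libraries labelled double and single already known. All 9 have a line in the table of 25965 genes, and all 9 passed the filter on low values that left 14612 genes tested. The day and label differences of the members are therefore given as values with no p, and counts of members called are descriptions. The cells were female C57/Bl6 Xmas mESCs, in which Hprt carries GFP on one of the X chromosomes and mCherry on its homologue. They were expanded in 2i medium, which holds mESCs in the naive state, and were weaned into serum medium to differentiate without direction. RNA was harvested on 9 days, from day 0 to day 8. Each day has 4 libraries, from the lines X14 and X18, each labelled double or single. What the words double and single stand for is not given in the labels, and here they only name the libraries. A combination of line and label is called a culture below. Whether double and single of a line were grown apart is not given. Per-library values are given in the order X14 double, X14 single, X18 double, X18 single throughout.

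Meiosis reduces the chromosome number of germ cells. Stra8 is induced by retinoic acid when a germ cell commits to meiosis. The chromosomes then take on a protein axis made of Sycp2, Sycp3, Hormad1 and cohesin complexes that hold meiotic subunits (Smc1b, Stag3, Rec8). Sycp1 forms the transverse filaments that zip homologous axes together, and Dmc1 catalyses the strand exchange that repairs programmed breaks from the homologue. Somatic cells keep most of these genes silent, by DNA methylation and by repressor complexes that hold E2F6, MGA and MAX, whereas naive mESCs, whose DNA carries little methylation, transcribe some of them.

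In the coordinates of the table (mm10) the genes lie as follows: Stra8 at chr6:34920163-34939342 (plus strand), Sycp1 at chr3:102818499-102936100 (minus strand), Sycp2 at chr2:178345293-178407685 (minus strand), Sycp3 at chr10:88459569-88473236 (plus strand), Hormad1 at chr3:95559677-95587671 (plus strand), Smc1b at chr15:85064691-85131957 (minus strand), Stag3 at chr5:138280240-138312393 (plus strand), Rec8 at chr14:55618037-55625395 (plus strand) and Dmc1 at chr15:79561500-79605084 (minus strand). The values are reads over all exons of a gene.

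The promoter windows of 4 members are shown, since Sycp1, Hormad1 and Smc1b had the largest label differences and Stra8 the largest difference over the course. The windows come from RefSeq (GRCm38.p6) and run from 250 bases before to 50 bases after the annotated start. They lie at chr3:102936051-102936350 (Sycp1, minus strand), chr3:95559427-95559726 (Hormad1, plus strand, 1 of 2 listed starts), chr15:85131908-85132207 (Smc1b, minus strand) and chr6:34920698-34920997 (Stra8, plus strand). Capitals mark 3 motifs read on both strands: the E-box CACGTG, which MAX and MGA can bind, TCCCGC, the core of the E2F6 motif, and CNCCTCAG, a motif of STRA8.
Sycp1 promoter: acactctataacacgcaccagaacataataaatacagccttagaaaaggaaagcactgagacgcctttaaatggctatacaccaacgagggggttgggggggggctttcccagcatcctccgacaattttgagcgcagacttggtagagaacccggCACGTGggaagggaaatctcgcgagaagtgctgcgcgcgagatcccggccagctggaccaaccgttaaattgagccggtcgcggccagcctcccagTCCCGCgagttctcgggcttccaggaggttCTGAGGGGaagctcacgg
Hormad1 promoter: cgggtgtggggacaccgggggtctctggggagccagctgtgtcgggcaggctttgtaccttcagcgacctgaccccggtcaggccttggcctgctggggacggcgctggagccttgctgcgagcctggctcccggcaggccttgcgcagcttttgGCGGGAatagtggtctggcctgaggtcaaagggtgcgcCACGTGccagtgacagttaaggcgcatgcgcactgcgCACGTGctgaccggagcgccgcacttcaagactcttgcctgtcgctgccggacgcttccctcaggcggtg
Smc1b promoter: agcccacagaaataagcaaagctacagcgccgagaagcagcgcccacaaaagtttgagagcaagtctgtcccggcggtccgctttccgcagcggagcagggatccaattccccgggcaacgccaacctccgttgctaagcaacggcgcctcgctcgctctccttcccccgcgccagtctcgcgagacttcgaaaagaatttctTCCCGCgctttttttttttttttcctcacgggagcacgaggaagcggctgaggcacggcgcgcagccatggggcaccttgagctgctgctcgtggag
Stra8 promoter: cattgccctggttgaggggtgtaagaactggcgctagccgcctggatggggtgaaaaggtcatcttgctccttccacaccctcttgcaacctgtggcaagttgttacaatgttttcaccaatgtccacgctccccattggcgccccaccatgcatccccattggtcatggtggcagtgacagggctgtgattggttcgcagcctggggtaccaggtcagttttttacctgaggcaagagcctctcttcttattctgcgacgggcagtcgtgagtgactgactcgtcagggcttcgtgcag

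The Sycp1 window held each of the 3 motifs once. The Hormad1 window held 2 E-boxes and 1 E2F6 core, the Smc1b window 1 E2F6 core, and the Stra8 window none. The Stra8 window begins at 34920698, inside the gene as counted, which starts at 34920163, so it leaves that start out. The Stag3 window, which begins at 138280259, also leaves out the counted start at 138280240. Over the 9 members, the E-box was present in 4 windows (Sycp1, Sycp3, Hormad1 and Stag3), against 7.15% of all 32851 windows of this length. The E2F6 core was present in 7 windows, all but those of Stra8 and Sycp2, against 19.98% of all windows. The STRA8 motif was present in the Sycp1 window alone, against 7.94% of all. The members' windows held 10 to 30 CpG dinucleotides, with a median of 7 over all windows. The E-box and the E2F6 core each contain a CpG, so the shares over all windows are not matched to the members' windows. Nothing is read from the motif counts. A match describes the letters of the window and no binding was measured.

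The libraries held 612740 to 2445826 reads in genes, and a floor of 3 reads corresponded to 1.04 to 3.90 RPM (the reads of a gene scaled to the total of its library). The floors, and the intervals of the pooled read ratios of Stra8 and Hormad1, cover counting error only. The other intervals are those of limma and come from the spread between libraries. Marker genes of mESCs (Pou5f1, Nanog, Zfp42 and 5 others) summed to 5688 to 8635 RPM on day 0 and to 460 to 811 RPM on day 8, with reads for 8 of 8 on both days. On day 0 the 2 X14 libraries went against their labels. The balance of X-linked against autosomal genes (the median log2 value of 569 X-linked genes, each relative to its own mean over the libraries, minus that of 14042 autosomal genes) was -0.72 in X14 double and 0.63 in X14 single on day 0. It was higher in double than in single of the same line and day in all of the other comparisons, with 0.61 against -0.35 in X18 on day 0. The label comparisons below leave out day 0, and the values of the members against day 0 are given with and without these X14 libraries.

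**Figure D1:**
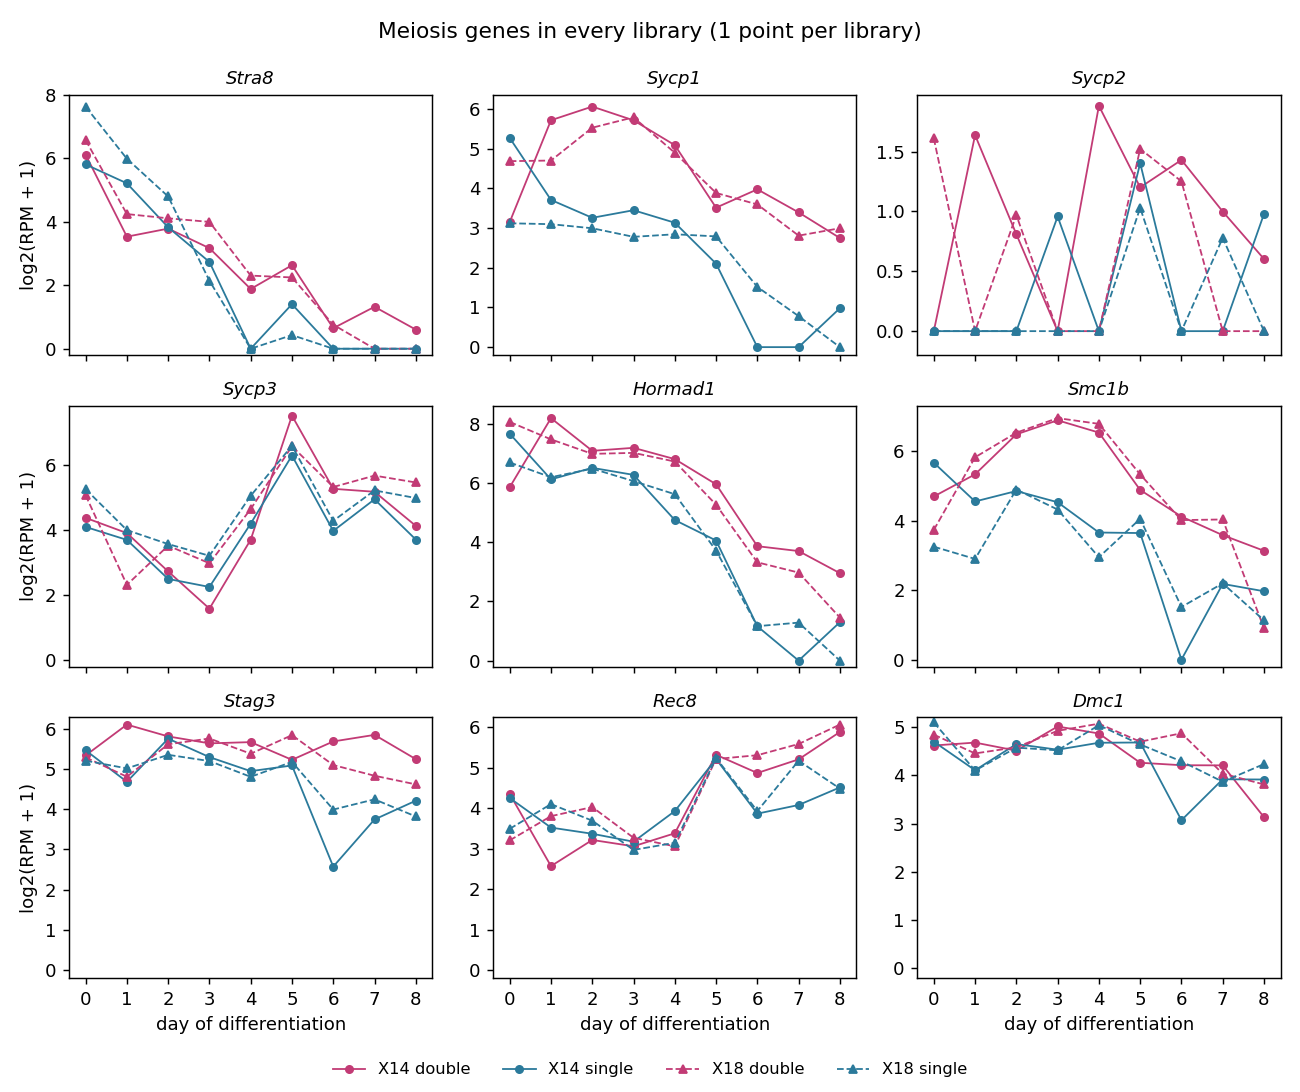
RPM of the 9 meiosis genes in each library, as log2(RPM + 1), against the day of differentiation. Each point is 1 library, colour gives the label and line style with marker shape gives the line. Stra8 was near 0 from day 6, and Rec8 and Sycp3 stood higher on day 5 than on day 4. Hormad1, Sycp1 and Smc1b ran higher in double after day 0, except Smc1b in X18 on day 8, with 1 read per library.

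Stra8, the gene of meiotic initiation, was detected on day 0 and had at most 1 read per library on day 8. On day 0 it stood at 68.5, 55.1, 94.6 and 197 RPM, and on day 1 at 10.6, 36.1, 17.96 and 62.5 RPM. On day 4 the levels were 2.69, 0, 3.94 and 0 RPM, and on day 8 they were 0.519, 0, 0 and 0 RPM. Every library of day 8 lay below every library of day 0. The log2 difference between day 4 and day 0 was -6.11 (SE 0.67, n = 4 libraries a day) and between day 8 and day 0 it was -7.12 (SE 0.67). Day 8 held 1 Stra8 read in all against 590 on day 0, a pooled ratio of 545 with a 95% interval of 97.5 to 2.157e+04 (exact, from the binomial distribution). In bulk RNA, fewer cells that express a gene and less RNA per cell cannot be told apart.

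The label order of Stra8 turned within the course. On days 1 and 2 single was above double in 4 of 4 comparisons of one line and day, for example 62.5 against 17.96 RPM in X18 on day 1. On days 3 to 5 double was above single in 6 of 6, for example 14.98 against 3.41 RPM in X18 on day 3. From day 6 on, every library lay at or under 3 Stra8 reads. On days 4 and 6 to 8 no read was found in either single library. These days were picked after the values were seen, and over days 1 to 8 the log2 difference between double and single was 0.55 with a 95% interval of -0.13 to 1.24.

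Hormad1, a HORMA domain protein of unsynapsed axes, had the highest level per exon length of the 9 genes on day 0, at 90.7 RPKM ± 54.8 (SD, n = 4; RPM per kilobase of exon). Its levels were 56.9, 202, 266 and 102 RPM on day 0, and 111, 25.9, 105 and 48.2 RPM on day 4. By day 8 they were 6.75, 1.46, 1.74 and 0 RPM, all below day 0. The log2 difference between day 8 and day 0 was -6.01 (SE 0.76), and the mean was 63.1-fold lower. Most of that difference lay after day 4, where the log2 difference from day 0 was -1.11 (SE 0.76). The fold on day 8 rests on few reads, 13, 3, 2 and 0 in the libraries. Pooled, day 8 held 18 Hormad1 reads against 938 on day 0, a ratio of 48.15 by depth with a 95% interval of 30.3 to 81.6 (exact, from the binomial distribution).

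The other axis genes took other courses. Sycp2, a partner of Sycp3 in the axis core, had 34 reads in the 36 libraries together and at most 2.69 RPM in any of them. No fold is given for Sycp2, because both day 0 and day 8 lay at or under the floor. Sycp3, the main component of lateral elements, stood at 16.2 to 37.6 RPM on day 0 and at 2.00 to 8.29 RPM on day 3. On day 5 it reached 185, 78.2, 95.6 and 96.6 RPM, above every library of the other days, and on day 8 it was back at 12.2 to 43.5 RPM, with a log2 difference from day 0 of -0.14 (SE 0.45). In the GENCODE M21 annotation of GRCm38, 660 of the 1264 exon bases counted for Sycp3 also lie in exons of Chpt1, a gene of phospholipid synthesis on the opposite strand. Whether counting used strand is not stated, so reads of the pair cannot be told apart. Chpt1 also had its highest mean on day 5, with 120, 45.3, 74.3 and 61.5 RPM, and the log2 values of both genes had a Pearson r of 0.75 over the 36 libraries, which share their days.

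**Figure D2:**
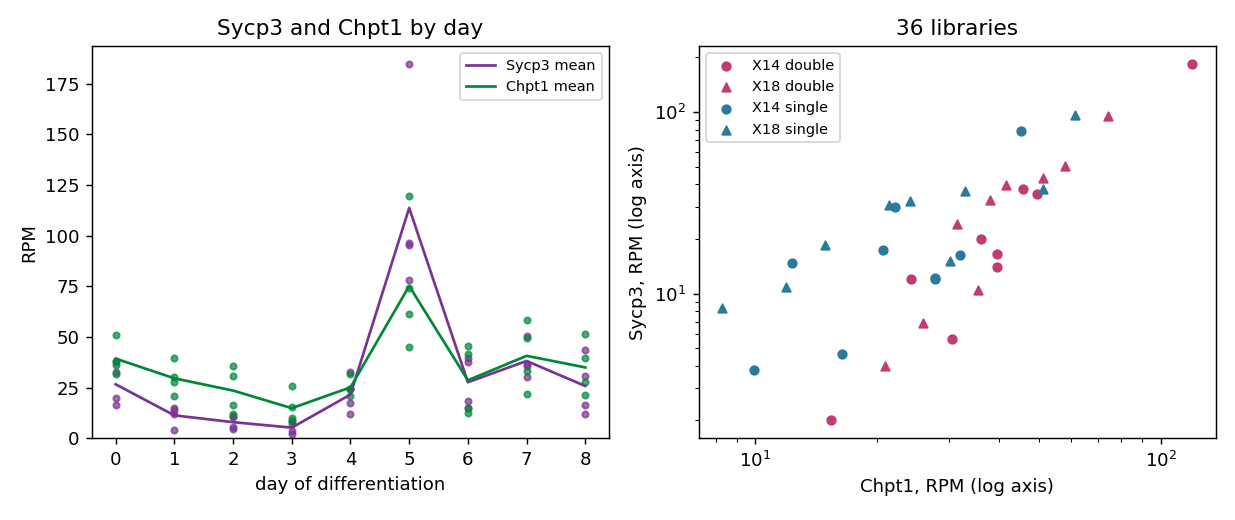
Left, RPM of Sycp3 and of the overlapping antisense gene Chpt1 by day, with 1 point per library and lines through the means of 4 libraries. Right, the same values of 36 libraries against each other on log axes. Both genes had their highest mean on day 5, 114 RPM for Sycp3 and 75.2 RPM for Chpt1.

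Sycp1, the transverse filament protein, was detected from day 0 at 7.87, 37.5, 24.7 and 7.68 RPM. Its mean was highest on day 2, at 31.5 RPM ± 28.7 (SD, n = 4), and that spread followed the label. On day 2 the libraries held 65.5, 8.55, 45.0 and 6.96 RPM, so both double libraries stood above both single libraries. On day 8 the levels were 5.71, 0.972, 6.96 and 0 RPM, all below day 0. The log2 difference between day 8 and day 0 was -2.60 (SE 0.97). Without the X14 libraries of day 0 it was -2.44 (SE 1.19).

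Smc1b, the meiotic SMC1 subunit of cohesin, differed by label in the middle of the course. In double the levels were 24.98 and 12.3 RPM on day 0, 118 and 123 RPM on day 3, and 7.79 and 0.870 RPM on day 8. In single the levels were 50.01 and 8.54 RPM on day 0, 22.2 and 19.0 RPM on day 3, and 2.92 and 1.19 RPM on day 8. The log2 difference between day 8 and day 0 was -3.11 (SE 0.92), and without the X14 libraries of day 0 it was -2.22 (SE 1.12).

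Stag3, the meiotic STAG subunit, stayed expressed throughout. It stood at 35.9 to 43.1 RPM on day 0 and at 36.9, 17.5, 23.5 and 13.1 RPM on day 8, with a log2 difference of -0.89 (SE 0.47) and groups that overlapped. Rec8, the meiotic kleisin that closes the cohesin ring, was the only member whose day 8 libraries all lay above day 0. It held 19.4, 18.1, 8.22 and 10.2 RPM on day 0 and 9.41, 14.2, 7.32 and 7.85 RPM on day 4. On day 5 the libraries lay close together at 36.2 to 39.0 RPM, and on day 8 they held 58.2, 21.9, 66.2 and 21.4 RPM, all above day 0. The log2 difference between day 8 and day 0 was 1.48 (SE 0.40). Dmc1, the meiotic recombinase, stood at 23.6 to 33.3 RPM on day 0, at 24.6 to 32.7 RPM on day 4 and at 7.79, 14.1, 13.1 and 17.8 RPM on day 8, with a log2 difference between day 8 and day 0 of -1.10 (SE 0.27).

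Against day 0, the limma fit passed 1 member lower (Stra8) and 0 higher on day 4, where 6.4% of all genes tested were called lower and 12.2% higher. A gene was called when its adjusted p (Benjamini-Hochberg) was under 0.05 and its log2 difference at least 1. On day 8 it passed 5 members lower (Stra8, Hormad1, Smc1b, Sycp1 and Dmc1), against 11.1% of all genes, and 1 higher (Rec8), against 23.9%. The median log2 difference on day 8 was -1.10 over the members and 0.23 over all genes tested. All day 8 libraries lay below all day 0 libraries for 5 members, against 9.85% of all genes, and above for 1 member, against 18.3%. The members were chosen with this contrast known, so nothing is read from these counts. Without the X14 libraries of day 0 the day 8 calls numbered 4 (Stra8, Hormad1, Dmc1 and Rec8), against 42.3% of all genes called in either direction.

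The members' remaining differences without the X14 libraries of day 0 were as follows. Between day 8 and day 0 the log2 difference was -7.69 for Stra8 (SE 0.83), -6.32 for Hormad1 (SE 0.94), -0.62 for Sycp3 (SE 0.55), -0.81 for Stag3 (SE 0.58), 2.00 for Rec8 (SE 0.48) and -1.26 for Dmc1 (SE 0.33). Each of these had the same sign as with all 4 libraries of day 0. Between day 4 and day 0 it was -6.68 for Stra8 (SE 0.83) and -1.42 for Hormad1 (SE 0.94). The day 4 difference of Smc1b was 0.65 with all libraries and 1.54 (SE 1.12) without these, and that of Rec8 was -0.49 and 0.03 (SE 0.48).

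The comparison of double with single asked which members followed the label. Each label is replicated only in the lines X14 and X18, and libraries of a line on different days are not separate replicates. The SE and intervals of the label therefore measure the spread between libraries, not between lines. Sycp1 was higher in double in 16 of 16 comparisons of one line and day from day 1 to day 8. Its levels over those days ran from 5.71 to 65.5 RPM in double (median 19.8) and from 0 to 12.1 RPM in single (median 5.88), n = 16 libraries each. On days 1 to 4 the groups did not overlap, with 24.9 RPM in the lowest double library and 12.1 RPM in the highest single library, and on days 5 to 8 they overlapped narrowly, at 5.71 and 5.91 RPM. The log2 difference was 2.53 (SE 0.18, 95% interval 2.16 to 2.90).

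Smc1b and Hormad1 shared this direction. Smc1b was higher in double in 15 of 16 comparisons, the exception being X18 on day 8, with 0.870 RPM in double and 1.19 RPM in single. Each of these values was 1 read, so they differ by depth alone. Its log2 difference was 2.10 (SE 0.27). Hormad1 was higher in double in 16 of 16, at 1.74 to 291 RPM (median 82.9) against 0 to 90.2 RPM (median 20.8), with a log2 difference of 1.78 (SE 0.21). Over days 1 to 8 the double and single libraries overlapped for both genes, as they did for Sycp1. On days 1 to 4 neither gene overlapped. The lowest double and highest single library held 39.4 and 28.8 RPM for Smc1b, and 105 and 90.2 RPM for Hormad1. The share of all genes without overlap on days 1 to 4 was not computed, and nothing is read from these gaps.

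Stag3 was higher in double in 15 of 16 comparisons, with a log2 difference of 0.87 (SE 0.19), under the minimum of 1. For the remaining members with enough reads the log2 difference was 0.35 for Rec8 (95% interval -0.03 to 0.72), 0.17 for Dmc1 (-0.10 to 0.43) and 0.11 for Sycp3 (-0.32 to 0.53). Double was higher in 9 of 16 comparisons for Rec8, in 12 for Dmc1 and in 9 for Sycp3. In the limma fit 3 members were called higher in double (Sycp1, Smc1b and Hormad1), against 2.93% of all genes tested, and 0 lower, against 1.61%. Double stood above single in 16 of 16 comparisons for 2 members and for 1.49% of all genes. The label contrast was among those the members were chosen with, and nothing is read from these shares.

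Day 0 showed the label difference with the opposite sign in X14. For Sycp1 the log2 difference of double and single on day 0 was -2.25 in X14 and 1.68 in X18, for Hormad1 -1.83 and 1.38, and for Smc1b -1.001 and 0.53. In the same 2 X14 libraries the X-linked balance was turned as well, as given above. With day 0 included, the label difference over all 9 days was 2.21 (SE 0.25) for Sycp1, 1.84 (SE 0.29) for Smc1b and 1.56 (SE 0.24) for Hormad1. None of the 9 members lies on the X chromosome.

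**Figure D3:**
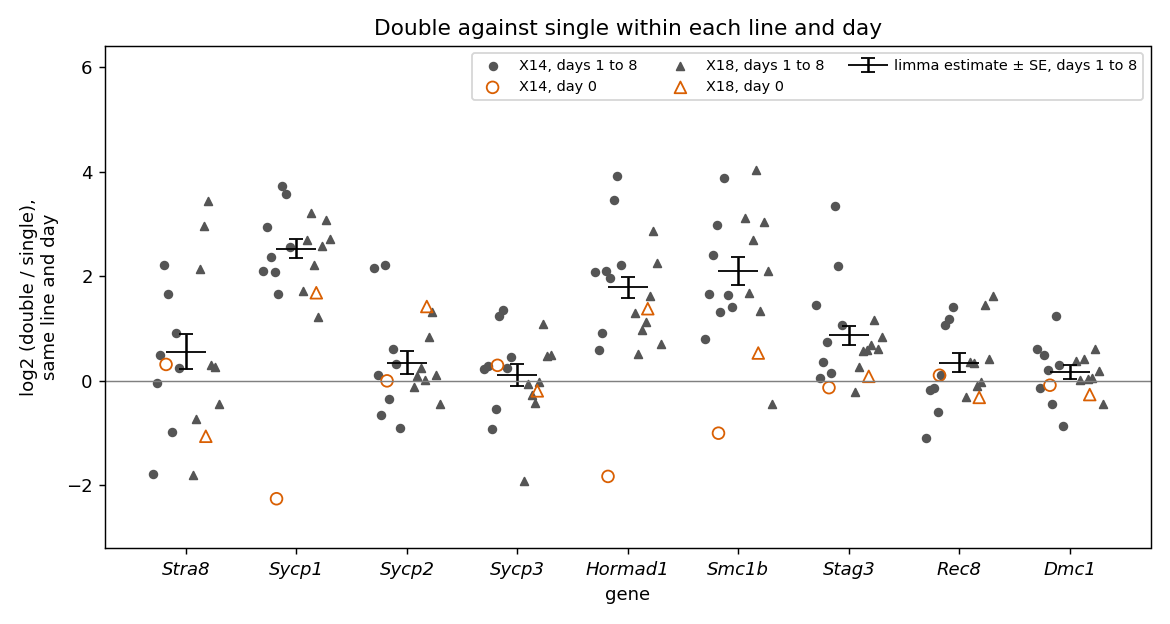
Log2 ratio of double to single of the same line and day for each gene, with filled points for days 1 to 8, open orange points for day 0, and black bars for the limma estimate ± SE over days 1 to 8. All 16 filled points of Sycp1 and of Hormad1 lie above 0, and the open X14 circles of Sycp1, Hormad1 and Smc1b lie below 0.

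Whether the label difference itself changed over the course was read from an interaction term in limma. It uses the libraries whose label difference was known when the members were chosen, so it is given with no p for them. For Hormad1 it was larger on days 5 to 8 than on days 1 to 4 by 1.18 on the log2 scale (SE 0.36, 95% interval 0.45 to 1.90). The mean level was 152 RPM in double and 67.0 RPM in single on days 1 to 4, and 18.6 and 4.15 RPM on days 5 to 8, where the 6 single libraries of days 6 to 8 held at most 3 Hormad1 reads each. For Rec8 the difference was larger on days 5 to 8 by 1.12 (SE 0.31, 95% interval 0.49 to 1.74). Rec8 means were 9.28 RPM in double and 10.6 RPM in single on days 1 to 4, and 43.7 and 24.4 RPM on days 5 to 8. These were the 2 of 9 members called, against 2.48% of all genes tested, and nothing is read from that count. Neither call was made with voom on the recovered reads, and leaving out 1 culture at a time left 0 or 1 of the 2, with 0 without X14 double, X14 single or X18 single.

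The label difference was also read within each line. For Sycp1 the log2 difference of double and single was 2.63 (SE 0.29) in X14 and 2.43 (SE 0.25) in X18, and for Smc1b it was 2.02 (SE 0.31) and 2.19 (SE 0.39). For Hormad1 it was 2.15 (SE 0.30) in X14 and 1.42 (SE 0.23) in X18, and the interaction of label and line was -0.74 with a 95% interval of -1.55 to 0.07. No member was called for this term in limma. Neither was any other gene (0% of all), although 919 had an unadjusted p below 0.05, and voom gave 0 calls as well. For the difference between the lines themselves 0 members and 0.0137% of all genes were called.

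The members ran along with each other in part. Over the 36 libraries, which share days and labels, the Pearson r of log2 values was 0.86 for Sycp1 with Hormad1, 0.85 for Sycp1 with Smc1b and 0.83 for Hormad1 with Smc1b. Stag3 had an r of 0.76 to 0.80 with these 3 genes. Rec8 had a negative r with each of them (-0.39 with Sycp1, -0.59 with Hormad1, -0.41 with Smc1b). The tested genes whose log2 values followed each member most closely over the 36 libraries were listed by the same measure. For Hormad1 these were 2410076I21Rik (r = 0.962), which is the older symbol of the meiosis gene Rec114, Nupr1 (0.954) and Rpl39l (0.951). For Sycp1 they were the X-linked genes Pnma5 (0.930) and Efhc2 (0.927), and Nlrp4c (0.913). For Smc1b they were Abcc5 (0.923), the X-linked gene Fgd1 (0.893) and Slc4a5 (0.890), and for Stra8 they were Myo1f (0.918), Hal (0.915) and Obox6 (0.915). For Stag3 the germ cell factor Sohlh2 came first (0.823), followed by Slc4a5 (0.817) and Nos1 (0.793). Rec8 was followed by Scnn1a (0.895) and Sycp3 by Hbp1 (0.891).

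A wider list of 41 meiosis genes, from initiation to crossover, was set beside the members. Of these, 40 have a line in the table and 32 were tested. This list and the lists of counterparts, regulators and germ cell markers below were chosen with earlier results of these data known. Their counts and adjusted p-values are descriptions and give no separate support. On day 4, 3 of the 32 were called higher, against 12.2% of all genes tested, and 2 lower, against 6.4%. Nothing is read from these counts. Meiosin, the partner of STRA8, went from no read in any day 0 library to 5.16 RPM, at least 2.45-fold higher (floor of 3 reads per library, adjusted p = 1.11e-06). Six6os1, a central element protein, rose by a log2 difference of 1.72 (SE 0.43, adjusted p = 0.00322), and Meioc, which keeps germ cells in meiotic prophase, by 1.23 (SE 0.41, adjusted p = 0.0258). The genes that fell were Dazl, an RNA-binding protein that licenses germ cells, at -3.05 (SE 0.72, adjusted p = 0.002), and Ccnb1ip1, a crossover factor, at -2.07 (SE 0.64, adjusted p = 0.0157). Leaving out 1 culture ended the call of Ccnb1ip1 without X14 single (adjusted p = 0.2) or X18 double (0.0853), that of Six6os1 without X18 single (0.0559), and that of Meioc without X14 single (0.0536), X18 double (0.207) or X18 single (0.0663).

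On day 8, 13 of the 32 were called lower, against 11.1% of all genes tested, and 0 higher, against 23.9%. The median log2 difference was -0.94 over the list (-0.80 with genes at 0 set to their bound) and 0.23 over all genes tested. As the list was chosen with earlier results known, nothing is read from these counts. Dazl fell from a mean of 200.2 to 1.48 RPM, at -6.95 (SE 0.72, adjusted p = 1.83e-09). Hsf2bp, which brings recombinases to breaks, fell from 129.5 to 4.23 RPM, at -5.55 (SE 0.54, adjusted p = 4.88e-10). Rec114, needed for break formation, fell from 66.3 to 1.99 RPM, at -5.28 (SE 0.74, adjusted p = 5.73e-07). Syce1 of the central element fell by 3.72 (adjusted p = 9.04e-05) and Hormad2, the paralogue of Hormad1, by 3.57 (adjusted p = 1.25e-05), both on the log2 scale. The crossover genes Tex11 (-2.82, adjusted p = 0.000796) and Shoc1 (-2.74, adjusted p = 0.0128) fell as well. Ccnb1ip1 had no read on day 8, at least 2.88-fold lower than its 6.62 RPM on day 0 (adjusted p = 0.000192). The call of Shoc1 was lost without the X14 libraries of day 0 (adjusted p = 0.0629), without X14 single (0.12) and without X18 double (0.0801).

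The adjusted p-values of the label are descriptions too, and they measure the spread between libraries of the lines X14 and X18, not between lines. Over the list the median label difference was 0.15, and over all genes it was -0.04. For the label, 7 of the 32 were called higher in double, against 2.93% of all genes tested, and 0 lower, against 1.61%. They were Shoc1 (log2 difference 2.15, SE 0.26, adjusted p = 3.45e-07), Syce1 (1.64, SE 0.22, adjusted p = 2.75e-06), Dazl (1.63, SE 0.21, adjusted p = 1.11e-06), Rec114 (1.59, SE 0.26, adjusted p = 4.63e-05), Hormad2 (1.34, SE 0.19, adjusted p = 6.53e-06), the telomere attachment gene Terb2 (1.27, SE 0.32, adjusted p = 0.00423) and Tex11 (1.03, SE 0.28, adjusted p = 0.00848). Shoc1 and Syce1 were higher in double in 16 of 16 comparisons, Hormad2 in 15, and Dazl and Rec114 in 14. Tex11 is X-linked and was not called in X18 alone (0.54, adjusted p = 0.324), and Terb2 was called in neither line alone. Leaving out 1 culture ended the call of Tex11 without X14 double (adjusted p = 0.377) or X14 single (0.45), and that of Terb2 without X14 single (0.0835) or X18 double (0.172). With voom, Rec114 (0.87) and Tex11 (0.81) lay under the minimum difference.

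**Figure D4:**
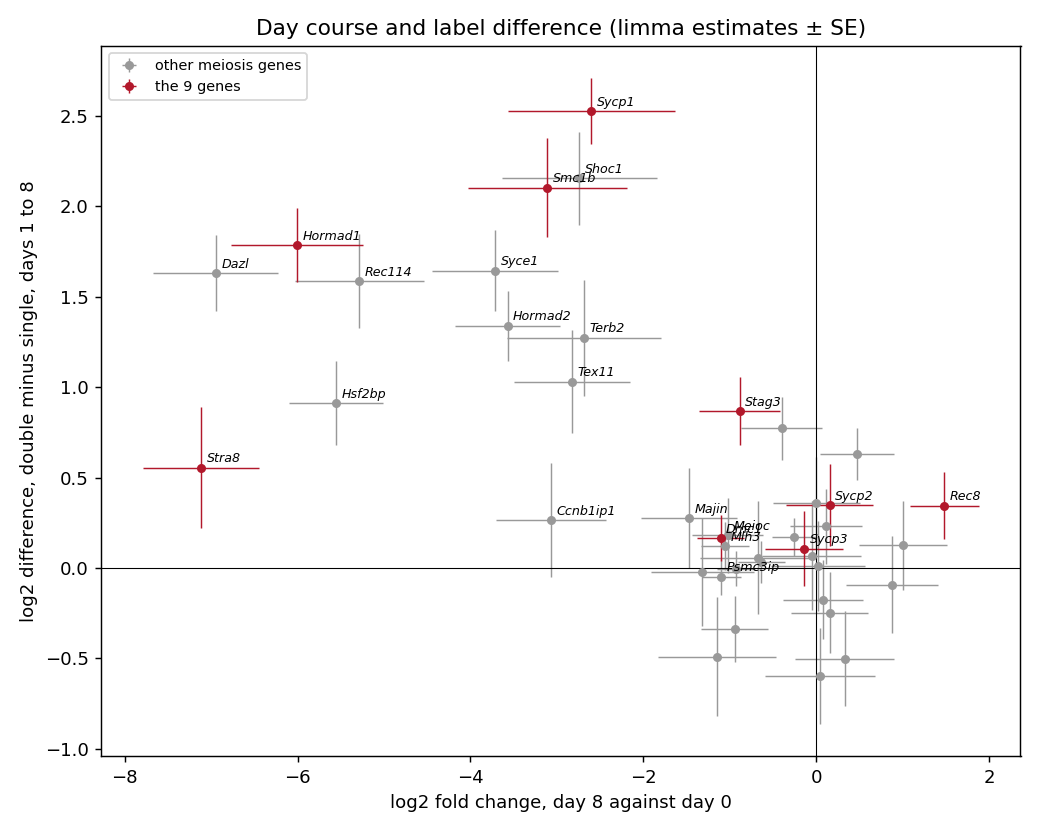
Log2 difference between double and single on days 1 to 8 against the log2 difference between day 8 and day 0, as limma estimates ± SE, for the 9 genes (red) and the 32 tested genes of the wider meiosis list (grey). Gene names are given for the 9 genes and for those called in either contrast. Sycp1, Smc1b and Hormad1 lie at the upper left, and Rec8 at the right with 1.48 on the horizontal axis.

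The mitotic counterparts of the members, which serve dividing cells of every type, were read beside them. In RPKM, which compares genes per exon length, Smc1a stood at 23.8 ± 13.8 (SD, n = 4) and Smc1b at 5.94 ± 4.64 on day 0. On day 8 these were 37.7 ± 6.36 and 0.790 ± 0.791 RPKM. Rad21, the mitotic kleisin, stood at 111 ± 20.7 RPKM on day 0 and 95.3 ± 8.43 on day 8, against 5.09 ± 2.03 and 15.2 ± 8.59 for Rec8. Dmc1 stood at 12.5 ± 1.95 RPKM on day 0 and 6.02 ± 1.89 on day 8. The 6 genes tested include Stag1, Stag2 and Smc3, the last a cohesin subunit shared by mitosis and meiosis. Of these 6, Smc1a (1.08, adjusted p = 0.00824) and Stag2 (1.33, adjusted p = 0.00149) rose by day 4 on the log2 scale, where 12.2% of all genes were called higher. On day 8 and between the labels 0 of the 6 were called. Smc1a and Stag2 are X-linked. The rise of Smc1a was not called without X18 double (0.69, adjusted p = 0.221), nor with 75th percentile scaling (0.97) or quantile normalization (0.95), and Smc3 was called as well without X14 double (1.25, adjusted p = 0.00101) or X14 single (1.06, adjusted p = 0.029). On day 8, Smc1a was called without X14 double (1.03, adjusted p = 0.0152) or X14 single (1.09, adjusted p = 0.0185). Without the X14 libraries of day 0, Smc1a (1.64, adjusted p = 3.19e-05) and Smc3 (1.32, adjusted p = 0.000103) were called higher on day 8, and Smc3 on day 4 (1.60, adjusted p = 1.97e-05). Stag1 was called lower on day 4 without X18 double (-1.11, adjusted p = 0.0313) and higher on day 8 without X18 single (1.05, adjusted p = 0.0192). Stag2 was higher in double by a log2 difference of 0.60 (adjusted p = 0.000122), under the minimum of 1.

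Regulators of these genes were read beside them. Of 14 repressors of germline genes, 4 were called higher on day 4, against 12.2% of all genes tested. They were the DNA methyltransferases Dnmt3b (log2 difference 5.29, SE 0.46, adjusted p = 1.6e-10) and Dnmt3a (3.53, SE 0.40), the histone methyltransferase Ehmt2 (1.88, SE 0.29) and L3mbtl2 of the E2F6 complex (1.503, SE 0.29). The mean of Dnmt3b was 53.8 RPM on day 0, 1849 on day 4 and 262 on day 8. On day 8, Dnmt3b (2.45) and Ehmt2 (1.13) were higher, against 23.9% of all genes, and Pcgf6 (-1.02) was lower, against 11.1%. Between the labels 0 of the 14 were called, against 2.93% of all genes higher in double and 1.61% lower. Of the 14, 5 had an adjusted p under 0.05 with a label difference under the minimum of 1. The largest was that of Dnmt3b, which was lower in double (-0.90, SE 0.12, adjusted p = 3.68e-06). Of 8 tested genes of the retinoic acid response, the receptor Rarg (1.77) and the binding protein Crabp2 (4.29) rose on day 4, while the synthesis enzyme Aldh1a2 (-2.51) fell. On day 8, Dhrs3 (3.34), Crabp2 (2.29) and Cyp26a1, which degrades retinoic acid, were higher, the last going from no read to 9.58 RPM (at least 4.55-fold), and Aldh1a2 (-1.56) was lower. Leaving out X14 single, X18 double or X18 single ended the day 8 call of Aldh1a2 (adjusted p 0.0583 to 0.162). Without X18 double, L3mbtl2 on day 4 (0.986) and Ehmt2 on day 8 (0.727) lay under the minimum difference, as did Pcgf6 on day 8 without X14 single (-0.909). Without the X14 libraries of day 0, the day 8 calls of Aldh1a2 (adjusted p = 0.211) and Pcgf6 (-0.868, under the minimum difference) were lost.

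Markers of germ cells, the cells that enter meiosis, were read in the same libraries. Of 14 markers, which include the member Sycp1 and Dazl of the wider list, 9 had reads on day 0. Nanos2 and Nobox had no read in any library, and Sohlh1 had 3, Figla 8 and Zbtb16 42 reads in all 36 libraries together. The summed level ran from 564 to 1009 RPM on day 0 and from 169 to 382 RPM on day 8. Of the 8 tested besides Sycp1, 5 fell by day 4, against 6.4% of all genes, and 6 by day 8, against 11.1%, led by Dazl, Kit (-3.53) and Sohlh2 (-2.93). Between the labels 4 of the 8 were higher in double, against 2.93% of all genes, led by Sohlh2 (1.67, SE 0.22, adjusted p = 1.69e-06), Dazl and Tfap2c (1.61, SE 0.18, adjusted p = 1.43e-07). The summed level was 303 to 922 RPM in double and 128 to 683 RPM in single on days 1 to 4, and 209 to 382 and 87.6 to 221 RPM on days 5 to 8. Tfap2c alone had means of 119 RPM in double and 51.0 RPM in single on days 5 to 8. The part of these markers in the label difference of Sycp1, Smc1b and Hormad1 was not tested.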

How the data were processed

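Total RNA of 36 libraries was sequenced by RNA-seq. The authors trimmed single-end reads, aligned them to mm10 (the submitters' processing notes name TopHat2 2.0.12 and bcl2fastq) and quantified genes with SeqMonk. The gene annotation and the strand setting are not given in the sources used here. The authors deposited log2 values. They were read as log2 RPKM, because lowest values differ between genes by exon length, with a gene without reads written as 0.9 read. All values resolved to whole reads, within 0.05 read, and these gave RPM and depths (612740 to 2445826 reads in genes). The fits were tested on simulated data with known changes. Of the value columns, 0 were without a library.

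Linear models were fitted in R 4.3.3 with limma 3.58.1, using its trended eBayes, on the deposited log2 values of 14612 genes with at least 1 RPM in at least 4 libraries. Genes were called at an adjusted p under 0.05 over all genes tested and a log2 difference of at least 1, two-sided. Day was the only factor in the fit of 36 libraries. Days 1 to 8 (32 libraries) were fitted with day, line and label, and with label by early or late days, or by line. There are 4 combinations of line and label, called cultures here, each with a library on every day. Libraries of one combination on different days are not separate replicates. The p-values therefore measure the spread between libraries and not between lines. Replicate numbers mark line and label, and pair libraries of one culture. Their deviations from the day means had a median r of 0.146 within numbers (144 pairs) and -0.0676 between numbers (432 pairs). The lowest chi-squared per gene between libraries of one day was 1.24.

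Members and gene lists were chosen with earlier results of these data known, so calls and adjusted p-values of listed genes are descriptions. The genes named beside the members are, from the wider meiosis list, those called or the 8 with the largest difference, up to 4 called genes from each of the regulator and germ cell lists, all mitotic counterparts, and the 3 genes most correlated with each member of at least 5 RPM. Some genes that these rules name are not reported here. Symbols were matched through RefSeq synonyms. Alternatives comprised filters, log2(RPM + 1), scalings, voom, the replicate block and left-out libraries.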

Additional observations from a re-analysis of the deposited data

Results flagged for a closer look

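In 70 groups of 4 libraries (1 member on 1 day, with more than 3 reads in at least 1 library), the gap of 1 library to the others was tested by Dixon's 95% criterion, which chance passes in about 1 of 20 groups. It was passed by 4 groups. Sycp2 on day 4 held 2.69 RPM in X14 double and 0 in the other libraries. Stag3 on day 1 held 67.6 RPM in X14 double, with 31.3 RPM next, and on day 5 it held 56.2 RPM in X18 double, with 36.4 RPM next. Dmc1 on day 5 held 18.2 RPM in X14 double, the shallowest library, with 24.0 RPM next.

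The label difference differed between late and early days (days 5 to 8 minus days 1 to 4, interaction term in limma) for 7 genes of the member, wider meiosis and germ cell lists. Members are given with no p, as the label difference of these libraries was known when they were chosen. It was larger on the late days for Hormad1 (1.18, SE 0.36), Rec8 (1.12, SE 0.31), Rec114 (2.22, SE 0.33, adjusted p = 8.79e-05), Hsf2bp (1.63, SE 0.36, adjusted p = 0.00602) and the germ cell factor Sohlh2 (1.59, SE 0.34, adjusted p = 0.00421). As a signed value, double minus single, it was lower on the late days for Terb2 (-1.96, SE 0.54, adjusted p = 0.0263) and Ythdc2 (-1.22, SE 0.29, adjusted p = 0.0105). Ythdc2 was higher in single on the late days, with means of 14.1 RPM in double and 26.8 RPM in single. Of the 8 mESC markers, Nanog was called too (-1.79, SE 0.31, adjusted p = 0.000643), and was named after its value was seen. Its late means were 181 RPM in double and 229 RPM in single, against 827 and 488 RPM over days 1 to 8. The mean level of Terb2 on the late days was 0.944 RPM in double and 0.32 RPM in single. Leaving out 1 culture ended the call of Ythdc2 for each of the 4 cultures (adjusted p 0.0666 to 0.172), that of Terb2 without X14 double (0.249), X18 double (0.116) or X18 single (0.279), that of Sohlh2 without X14 double (0.0641) or X18 double (0.0676), and that of Hsf2bp without X14 double (0.0881). With voom Terb2 was not called (0.0935).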

How the results depend on the processing

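Over the alternative settings, values of the members were judged by the spread alone, and those of the other named genes by their call. Of the values of single genes, 1517 stayed within the spread (members) or kept their call (other genes). Among the other genes 59 values lost a call and 9 gained one, and among the members 5 moved by more than the spread. Lost calls of members are not in the 59. On day 8 Sycp1 and Smc1b were not called with voom, Rec8 not without X18 double and Dmc1 not without X14 double. No called value turned its sign, while 52 values not called in the fit reported did, such as the label difference of Sycp3 (0.11, and -0.08 in X18 alone). On day 4, 3 genes of the wider meiosis list were called with a mean of at least 10 RPM (5 in the fit reported), where fewer genes were tested, and leaving out 1 culture gave 3 to 6 (members 1 to 2). On day 8 leaving out 1 culture gave 4 to 6 members and 9 to 13 genes of the list. For the label, leaving out 1 culture gave 3 to 4 members and 5 to 8 genes of the list. For the change of the label difference over the course, 1 member was called without the filter (Rec8), 1 with log2(RPM + 1) (Rec8) and 0 with voom, against 2 in the fit reported. Leaving out 1 culture gave 0 to 1 members and 1 to 4 genes of the list, and without day 5, chosen after seeing the data, 3 members were called. The cause was not tested. For the difference between X18 and X14, leaving out 1 culture gave 0 members each time. The label by line term could not be estimated with 1 culture left out. With the replicate block, 1 member and 7 genes of the list were called on day 4 and 6 and 13 on day 8, and with double and single of a line and day paired, 3 and 7 for the label, so that the pairing changed no call of a member. Depth limits Sycp2 in every library, and Stra8 in every library of days 6 to 8, to a few reads. The same holds for Hormad1, Sycp1 and Smc1b in single libraries of days 6 to 8, and for Hormad1 and Smc1b in X18 double on day 8.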
